A study of Zea mays subsp. mays x Zea mays subsp. mexicana with 20 samples.

Results

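Long small RNA loci were stretches of at least 10 kb of the maize genome over which pollen small RNAs accumulated without a gap large enough to split them into separate loci. They were chosen by length and a minimum of reads, as loci of at least 10000 bp that had at least 15 reads over 6 libraries. There were 128 such loci among 44629 loci with at least 15 reads, out of 85421 loci in the deposited table. The libraries came from pollen of 3 genotypes, and each genotype was sequenced in 2 biological replicates. In Dcl2 plants the gene that encodes the Dicer-like protein DCL2 was functional. The dcl2T-/- plants were homozygous for the allele of teosinte *mexicana*, isolated as maternal recombinants, and that allele lies within a longer *mexicana* introgression. The dcl2-mu1 plants were homozygous for 1 allele disrupted by a *Mu* transposon in its leader, which came from the Uniform-Mu collection and was backcrossed repeatedly to the inbred W22. The remaining 14 of the 20 samples in the series were not analysed here.

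Dicer-like proteins cut double-stranded RNA into small interfering RNAs (siRNAs), and each plant Dicer-like protein yields its own length class. DCL2 works on folded hairpin transcripts and on RNA copied into double strands by an RNA-dependent RNA polymerase, while other Dicer-like proteins supply the siRNAs that guide DNA methylation at transposons. A locus in the table is a unit of read placement, so a long one can be a single long precursor, several transcripts merged, or an array of repeats. The table gave a name, a position and read counts with all read lengths together, and it paired no locus with a gene or transposon. No statement about siRNA length, strand or annotation is therefore possible for the loci below, and positions are those of the deposited table.

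The 6 libraries held between 1950081 and 4920576 counts. The lowest total was that of dcl2-mu1 replicate 1, which also stood apart in that its median locus of 1 to 5 kb had a level of 0, against between 0.924 and 1.23 CPM per kb in the other 5 libraries, CPM being the count scaled to a common library total. Of the 128 long loci, 1 had no read in dcl2-mu1 replicate 1 and 1 had none in Dcl2 replicate 1. The median fold between the 2 libraries of a genotype over the long loci was 1.17 for Dcl2, 1.14 for dcl2T and 1.32 for dcl2-mu1. P values below set differences between genotypes against the spread between such libraries.

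The long loci ranged from 10024 to 29671 bp, with a median of 12149.5 bp. Of them, 61 were under 12 kb, 40 were between 12 and 15 kb, 18 between 15 and 20 kb, and 9 were at least 20 kb long. Read density over the 6 libraries ranged from 2.54 to 28976 reads per kb, with a median of 119 and quartiles of 62.7 and 328. Density differed far more between these loci than length did. The 59 loci with under 100 reads per kb held 1.54% of the counts in long loci, and the 45 with 100 to 1000 reads per kb held 5.22%. The 20 loci with 1000 to 10000 reads per kb held 37.3%, and the 4 densest held 56.0%.

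**Figure D1:**
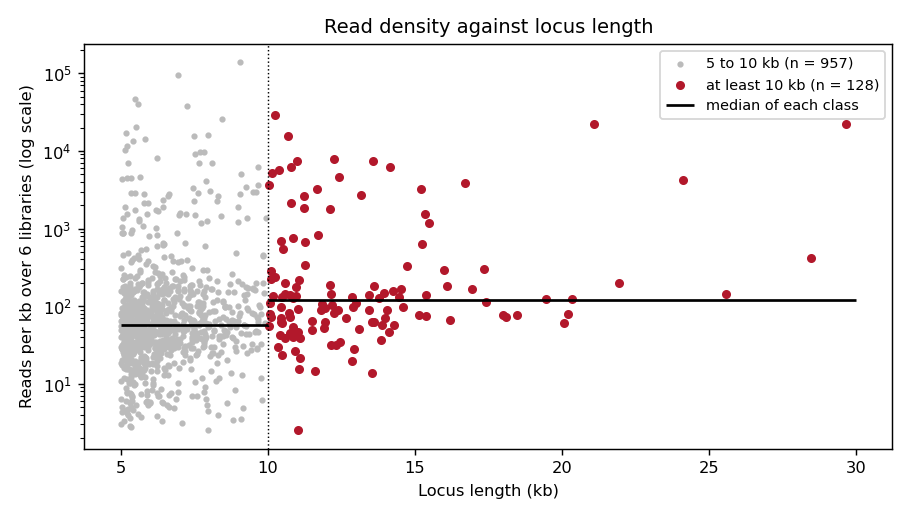
Read density over 6 libraries (reads per kb, log scale) against locus length (kb) for each of the 128 long loci and for the loci of 5 to 10 kb. Horizontal lines mark the median of each class, which is 119 for the long loci and 57.8 for the shorter ones, and the 4 densest long loci lie above 10000 reads per kb.

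At the sparse end stood Cluster_13376 on chromosome 2 (10882001 to 10893029), whose counts were 0 and 4 in Dcl2, 3 and 5 in dcl2T, with 12 and 4 in dcl2-mu1. It was the only long locus that did not pass the filter on low counts. Cluster_54621 on chromosome 6 (107662880 to 107676418) was next, at 5.80 and 8.20 CPM in Dcl2, 6.42 and 6.91 in dcl2T, with 16.4 and 7.83 in dcl2-mu1. Its 2 dcl2-mu1 libraries were further apart than those of the other genotypes. The median density was 106 reads per kb in the 61 loci under 12 kb and 97.0 in the 40 loci of 12 to 15 kb. It was 154 in the 18 loci of 15 to 20 kb and 201 in the 9 loci from 20 kb up. These last 9 held 44.3% of the counts in long loci. The 3 longest loci were Cluster_66207 (29671 bp), Cluster_15969 on chromosome 2 (28491 bp) and Cluster_72029 on chromosome 8 (25572 bp). Cluster_15969 (79882532 to 79911022) had 414 and 555 CPM in Dcl2, 428 and 485 in dcl2T, with 454 and 645 in dcl2-mu1. Cluster_72029 (179926889 to 179952460) had 118 and 131, 160 and 171, and 176 and 174 CPM. On CPM, the ranges of the 3 genotypes overlapped in the former, whereas Dcl2 was below both mutants in the latter.

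The limit of 10 kb cut through similar loci. Just above it lay Cluster_59057 on chromosome 7 (10024 bp, 3645 reads per kb) and Cluster_2190 on chromosome 1 (10034 bp, 56.2 reads per kb). Just below it lay Cluster_66201 (9934 bp, 1386 reads per kb) and Cluster_68556 (9902 bp, 61.2 reads per kb), both on chromosome 8.

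Long loci were found on all 10 chromosomes. Chromosome 8 had 18 of them and 44.8% of their counts, chromosome 10 had 15 and 13.9%, and chromosome 5 had 14 and 11.1%. Chromosome 2, with 17 loci, held 8.81%, and chromosome 6, with 16, held 4.45%. The fewest were on chromosome 7, with 6 loci and 1.42% of the counts, and 1 locus lay on an unplaced scaffold. Some of them were neighbours. With a gap of less than 20 kb taken as adjacent, 17 of the 128 fell into 7 runs, of which 6 were pairs. The run of 5 on chromosome 8 spanned 115.741 kb and contained both of the loci with the most counts.

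The first question was how much of the pollen small RNA population came from these loci. Long loci were 0.287% of the loci with at least 15 reads and 2.51% of their summed length, and they held 12.1% of all counts. Per library their share was 17.4% and 17.0% for Dcl2, 8.56% and 8.81% for dcl2T, and 11.1% and 9.63% for dcl2-mu1. Wilson 95% intervals on a single library were narrow, for example 17.37% to 17.45% in Dcl2 replicate 1 and 11.05% to 11.14% in dcl2-mu1 replicate 1, and they cover counting error only. Both Dcl2 libraries were above all 4 mutant libraries. The mean share was 17.2% ± 0.257 for Dcl2, 8.68% ± 0.181 for dcl2T and 10.4% ± 1.04 for dcl2-mu1 (SD, n = 2 libraries each).

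The share was 8.54 percentage points lower in dcl2T than in Dcl2, and 6.87 points lower in dcl2-mu1 than in Dcl2. Between the mutants, dcl2-mu1 was 1.68 points above dcl2T, and 0.940 points without dcl2-mu1 replicate 1. With a length limit of 5000 bp, the differences of dcl2-mu1 were −1.73 points from Dcl2 and 4.78 points from dcl2T. An exact two-sided permutation test of 2 against 2 libraries gave p = 0.33 each time, which is the smallest p this design allows. The differences came from 4 loci. Cluster_66207, Cluster_66205, Cluster_47833 and Cluster_36249 together held 12.0% ± 0.677 of all counts for Dcl2, 3.11% ± 0.227 for dcl2T and 5.27% ± 0.640 for dcl2-mu1 (SD, n = 2 libraries each). They made up 69.6% of the long-locus counts for Dcl2, 35.8% for dcl2T and 50.8% for dcl2-mu1. The other 124 long loci held 5.23% ± 0.420 of counts for Dcl2, 5.57% ± 0.0460 for dcl2T and 5.09% ± 0.399 for dcl2-mu1. Without Cluster_66207 alone, the differences were −4.41 points for dcl2T and −3.98 points for dcl2-mu1 against Dcl2, and the mutants overlapped, 0.429 points apart. Leaving out all 4 loci turned the difference between dcl2T and Dcl2 to 0.337 points in the other direction, and that between dcl2-mu1 and dcl2T to −0.476 points.

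**Figure D2:**
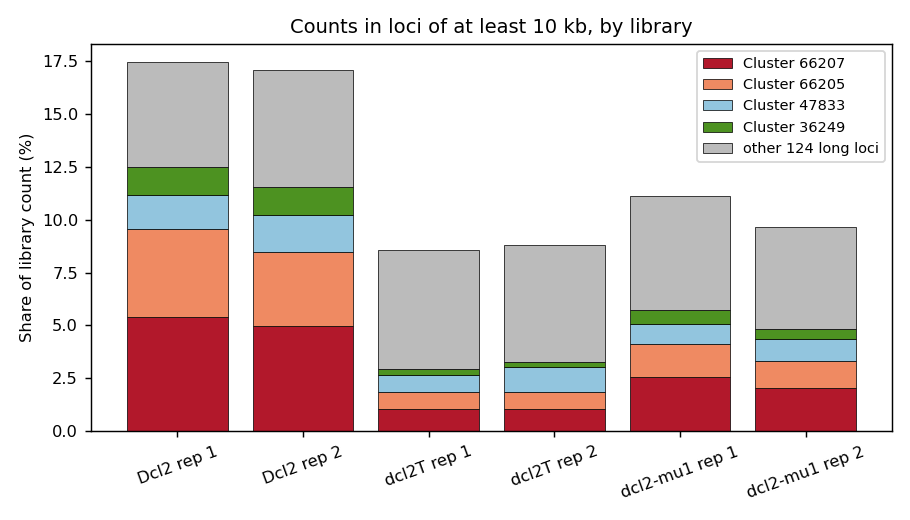
Percent of all counts that lay in long loci, for each of the 6 libraries, as bars that start at 0 and stack the 4 most abundant long loci and the sum of the other 124. The 4 loci hold 12.0% of counts for Dcl2 but 3.11% for dcl2T and 5.27% for dcl2-mu1, whereas the other 124 stay between 4.81% and 5.60% in every library.

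The ratio of their share of counts to their share of locus length was 4.81 ± 1.62 (SD, n = 6), and it ranged from 3.41 to 6.93. Without the 4 most abundant loci it was 2.20 ± 0.141 (SD, n = 6). The median long locus had 4.25 ± 0.387 CPM per kb for Dcl2, 5.82 ± 0.677 for dcl2T and 3.42 ± 0.0371 for dcl2-mu1 (SD, n = 2 libraries each). The median of the 957 loci of 5 to 10 kb was 2.07, 2.66 and 2.25 CPM per kb in the same order. The long loci were therefore compared with this next shorter class within each library. Their median density was 2.08 and 2.03 times that of the shorter class in the Dcl2 libraries, 2.15 and 2.21 times in dcl2T, and 1.54 and 1.50 times in dcl2-mu1. The mean log2 ratio was 0.92 ± 0.25 (SD, n = 6). The same fixed loci were measured in every library, so the shared sign in 6 of 6 libraries is a description and no test is given. The excess was smaller in both dcl2-mu1 libraries than in the other 4, a difference that was not tested. Both classes were limited to loci with at least 15 reads, and the minimum asks for a lower density in a longer locus. With a minimum of 100 reads the mean log2 ratio was smaller, at 0.68.

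The 6 most abundant long loci were described next. Cluster_66207 on chromosome 8 (32579531 to 32609201), the longest locus, had 53932 and 49888 CPM in Dcl2, 10490 and 10617 in dcl2T, with 25684 and 20356 in dcl2-mu1. Cluster_66205, upstream of it on the table's coordinates (32541762 to 32562866), had 41425 and 34771 CPM in Dcl2, 8080 and 7891 in dcl2T, with 15630 and 12891 in dcl2-mu1. Cluster_36249 on chromosome 4 (117693135 to 117703803) had 13262 and 12955, 2734 and 2490, and 6246 and 4419 CPM. All 3 loci had the same order of genotypes, Dcl2 highest, dcl2-mu1 intermediate and dcl2T lowest, without overlap between the groups. Their levels also kept nearly the same proportions. The ratio of Cluster_66205 to Cluster_66207 lay between 0.609 and 0.770 in the 6 libraries, and that of Cluster_36249 to Cluster_66207 between 0.217 and 0.261, although the latter pair lies on different chromosomes. Reads that align equally well to several positions can be divided among loci by the aligner, and whether these loci share reads was not tested.

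Cluster_47833 on chromosome 5 (157190641 to 157200867) was the densest locus, with 28976 reads per kb. It had 16132 and 17561 CPM in Dcl2, 8234 and 11752 in dcl2T, with 9625 and 10467 in dcl2-mu1. Here the mutants overlapped each other and both were below Dcl2, and the ratio to Cluster_66207 varied from 0.299 to 1.11. The other 2 of the 6 were not below Dcl2 in either mutant on CPM. Cluster_84953 on an unplaced scaffold (685711 to 709840) had 3888 and 3969 CPM in Dcl2, 4629 and 4475 in dcl2T, with 4486 and 4257 in dcl2-mu1. Cluster_7071 on chromosome 1 (185254020 to 185266252) had 3637 and 3747, 4149 and 3939, and 5354 and 4432 CPM. At both loci the 4 mutant libraries lay above the 2 Dcl2 libraries on CPM. That order depended on the scale, and on TMM-scaled library sizes it held at neither locus. With TMM factors, the edgeR log2 fold change of Cluster_84953 against Dcl2 was 0.05 for dcl2T and −0.21 for dcl2-mu1. The TMM factors were 0.836 and 0.930 in Dcl2 against 1.30 and 0.998 in dcl2-mu1, so orders on CPM need not hold on that scale.

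**Figure D3:**
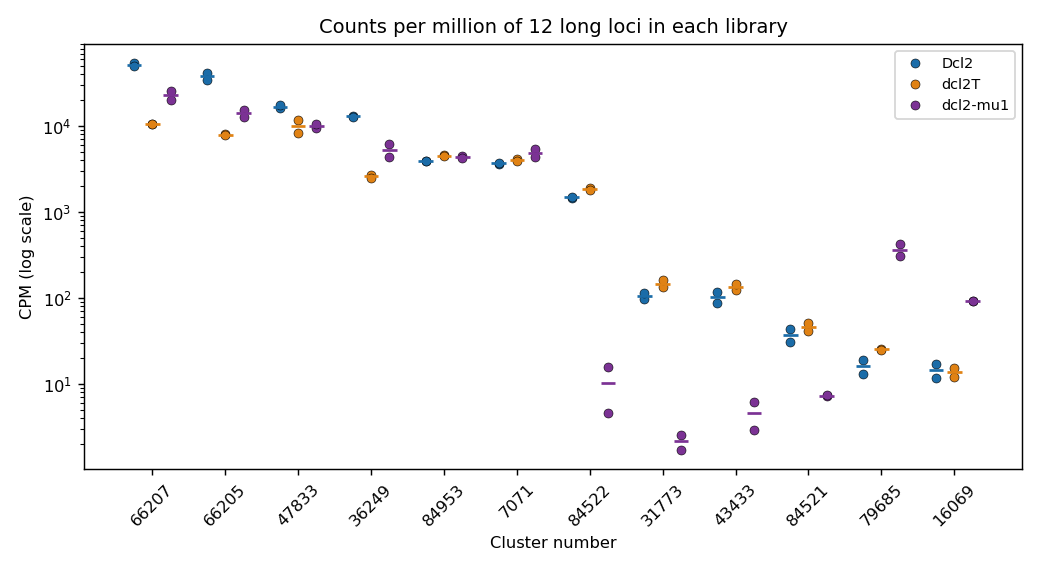
Level in CPM (log scale) of 12 long loci in each of the 6 libraries, with 1 point per library coloured by genotype and a bar at the mean of each genotype. Cluster_66207, Cluster_66205 and Cluster_36249 are lowest in dcl2T, whereas Cluster_84522, Cluster_31773 and Cluster_43433 are low in dcl2-mu1 only and Cluster_79685 is high in dcl2-mu1 only.

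Pollen of dcl2T was set against that of Dcl2 to ask which long loci differed under the *mexicana* allele. The 4 most abundant long loci all lay below Dcl2 in both dcl2T libraries, by between 1.69-fold and 5.02-fold in mean CPM. Of these, 2 were called lower, and no long locus was called higher. In edgeR's quasi-likelihood test, 127 of the 128 long loci passed the filter, and a call required an adjusted p (Benjamini-Hochberg) of 0.01 or less together with an absolute log2 fold change of 2 or more. Of the 127, 2 were called lower, and they were the only loci called lower among all 22558 tested (0.00887%). Of the 127, 0 were called higher, where the background was 0.0177%. At an unadjusted p under 0.05, edgeR counted 6 lower (background 1.92%) and 0 higher (2.14%), and DESeq2 counted 7 and 0. The edgeR counts at this limit became 6 and 7 with library size alone, 9 and 6 with only the 2 genotypes fitted, 7 and 5 without dcl2-mu1 replicate 1, and 7 and 6 without replicate 2. At an adjusted p under 0.05, 3 were lower, out of 4 among all tested loci (0.0177%), and 0 higher (0.0532%) by edgeR. The long loci are more abundant than most, with a median of 59.3 CPM against 3.20 CPM over all tested loci, and the part of abundance in these shares was not tested.

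Cluster_36249 was 5.02-fold lower in dcl2T by mean CPM, at a log2 fold change of −2.49 ± 0.24 (SE) and an adjusted p of 0.0083 by edgeR. Cluster_66207 was 4.92-fold lower, at −2.47 ± 0.23 (SE) and an adjusted p of 0.00751. Cluster_66205 had a change of nearly the same size, −2.42 ± 0.24 (SE), but its adjusted p by edgeR was 0.0109 and it was not called. These calls lay close to the threshold. The count of 2 became 0 without Dcl2 replicate 1, without Dcl2 replicate 2 or without dcl2T replicate 2, and 1 without dcl2T replicate 1, whereas the log2 fold changes of the 2 called loci stayed between −2.57 and −2.28 under all alternatives. The allele and other *mexicana* sequence in the introgression cannot be told apart.

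Over all 127 long loci the median log2 fold change was 0.17, with quartiles of −0.13 and 0.46. The median was 0.07 over all tested loci and 0.13 over the tested loci of 5 to 10 kb. The long loci were below the median of all tested loci with no filter on low counts (0.24 against 0.32), without Dcl2 replicate 1 (0.16 against 0.32) and without Dcl2 replicate 2 (0.20 against 0.28). Scaling by library size alone in place of TMM factors gave 0.35 for the long loci and 0.25 for all. By density, the median was 0.27 in the loci with under 100 reads per kb, 0.23 from 100 to 1000, −0.09 from 1000 to 10000, and −2.45 in the 4 densest. On CPM, both dcl2T libraries were above both Dcl2 libraries at 74 of the 127 (background 27.5%) and below them at 19 (11.9%). On TMM-scaled CPM the counts were 56 (22.3%) and 28 (15.5%). The 2 loci with the largest rises among those with at least 5 CPM were low in abundance. Cluster_22151 on chromosome 2 (236906982 to 236917459) had 7.31 and 4.55 CPM in Dcl2, 18.1 and 19.5 in dcl2T, with 6.15 and 3.43 in dcl2-mu1, and its edgeR log2 fold change of 1.48 between dcl2T and Dcl2 had an adjusted p of 1. Cluster_26588 on chromosome 3 (114528277 to 114542575) had 18.9 and 22.5, 48.4 and 55.3, and 12.3 and 31.3 CPM, with a log2 fold change of 1.16 and an adjusted p of 1.

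The comparison of dcl2-mu1 with Dcl2 asked which long loci differed under the allele with the *Mu* insertion. That allele and any other sequence left from the Uniform-Mu line cannot be told apart. In dcl2-mu1, 3 long loci that were present in both other genotypes fell by between 22.6-fold and 145-fold in mean CPM, and 1 rose 22.9-fold. The edgeR test called 3 of the 127 lower, against 0.186% of all tested loci, and 1 higher, against 0.235%. At an unadjusted p under 0.05 it counted 39 lower (background 10.4%) and 7 higher (5.09%). The counts at this limit were 24 and 16 with library size alone as the scale, 28 and 9 without dcl2-mu1 replicate 1, and 76 and 5 without dcl2-mu1 replicate 2. Among the 915 tested loci of 5 to 10 kb, 12.0% were lower at that limit. At an adjusted p under 0.05 with no limit on the fold, 10 long loci were lower (0.754%) and 2 higher (0.674%).

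Cluster_84522 on chromosome 10 (143127480 to 143138693) showed the deepest loss. It had 1469 and 1500 CPM in Dcl2 and 1923 and 1827 in dcl2T, but 4.62 and 15.9 in dcl2-mu1, from 9 and 65 reads. The edgeR log2 fold change against Dcl2 was −7.40 ± 0.66 (SE), with an adjusted p of 0.00108. It was −6.75 without dcl2-mu1 replicate 1 and −9.24 without replicate 2, so the size of the loss is uncertain. Cluster_31773 on chromosome 3 (237450363 to 237460483) had 97.3 and 113 CPM in Dcl2, 132 and 162 in dcl2T, with 2.56 and 1.71 in dcl2-mu1. The edgeR log2 fold change was here −6.00 ± 0.42 (SE), with an adjusted p of 0.000277. Cluster_43433 on chromosome 5 (29265365 to 29280748) had 87.5 and 118, 124 and 146, and 6.15 and 2.94 CPM, with a log2 fold change of −4.93 ± 0.43 (SE) and an adjusted p by edgeR of 0.00101. In all 3 loci both dcl2T libraries were above both Dcl2 libraries, so the order of genotypes was not that of Cluster_66207.

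Cluster_79685 on chromosome 10 (19443060 to 19456661) went the opposite way, with 12.9 and 19.1 CPM in Dcl2, 25.2 and 25.0 in dcl2T, with 422 and 309 in dcl2-mu1. The log2 fold change was 4.13 ± 0.36 (SE), with an adjusted p by edgeR of 0.00101. Cluster_48935 on chromosome 5 (184505877 to 184517385) was also higher in dcl2-mu1, at 38.5 and 87.7 CPM against 5.29 and 7.51 in Dcl2 and 10.1 and 8.33 in dcl2T, but its edgeR log2 fold change of 3.02 had an adjusted p of 0.0583. Cluster_16069 on chromosome 2 (83604876 to 83614952), named after its values were seen as the other locus higher at an adjusted p under 0.05, had 11.6 and 17.1, 12.2 and 15.4, and 91.3 and 93.1 CPM, with an adjusted p by edgeR of 0.0377.

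The 4 most abundant loci were also lower in dcl2-mu1, by less than 4-fold, and none of them was called. Cluster_66207 was 2.26-fold lower by mean CPM (edgeR log2 fold change −1.56 ± 0.22, adjusted p 0.0110), Cluster_66205 2.67-fold (−1.81 ± 0.24, 0.00794) and Cluster_36249 2.46-fold (−1.70 ± 0.23, 0.00963). Cluster_47833 had a log2 fold change of −1.10 ± 0.26 (SE) and an adjusted p of 0.0959 by edgeR. The remaining loci lower at an adjusted p under 0.05, named after their values were seen, were Cluster_80187, Cluster_83471 and Cluster_84521 on chromosome 10 and Cluster_34967 on chromosome 4. Cluster_80187 had 4842 and 5701 CPM in Dcl2, 4771 and 4570 in dcl2T, with 2250 and 2027 in dcl2-mu1. Cluster_83471 had 2752 and 3145, 3824 and 3445, and 1573 and 1259 CPM.

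**Figure D4:**
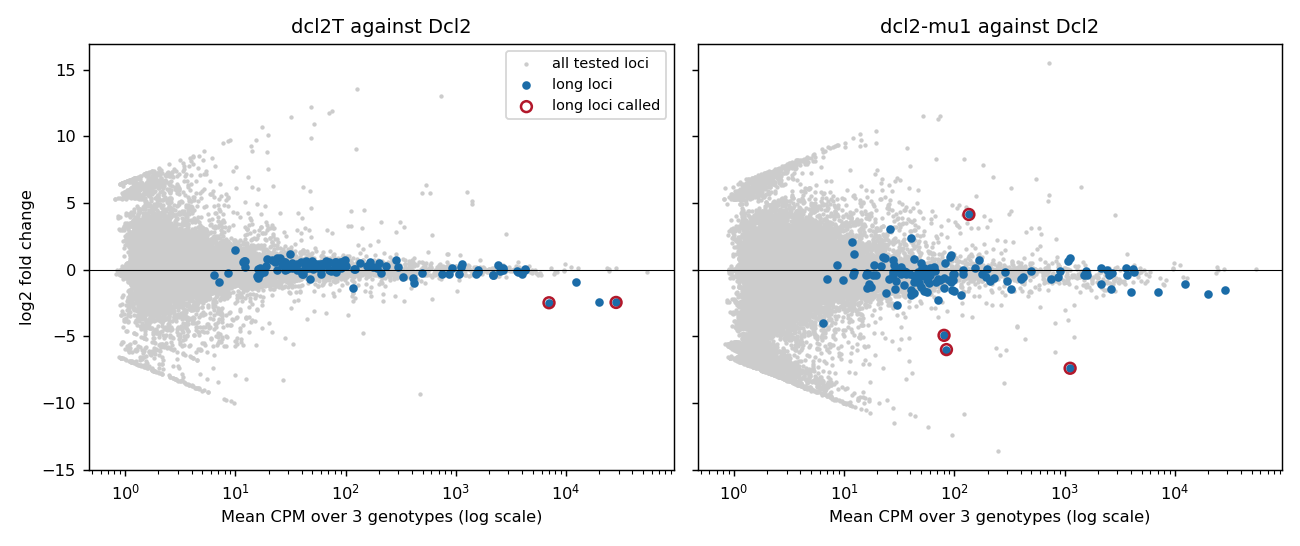
Log2 fold change by edgeR against mean CPM over the 3 genotypes (log scale) for dcl2T and for dcl2-mu1 against Dcl2, with all tested loci in grey, the 127 tested long loci in blue and called long loci circled. The 2 loci called in dcl2T are among the most abundant, whereas the 3 called lower in dcl2-mu1 have values between −7.40 and −4.93 and the 1 called higher lies at 4.13.

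Over all 127, the median log2 fold change in dcl2-mu1 against Dcl2 was −0.41, with quartiles of −0.98 and −0.04, beside −0.30 over all tested loci. With library size alone as the scale the medians were −0.04 and 0.02, so the fall of the median long locus depended on the scaling. The long loci were above the median of all tested loci without dcl2-mu1 replicate 1 (−0.28 against −0.33) and without replicate 2 (−1.03 against −3.21). With the replicate block both medians were −0.42. The median was −0.35 in the loci with under 100 reads per kb, −0.60 from 100 to 1000, −0.34 from 1000 to 10000 and −1.63 in the 4 densest. Both dcl2-mu1 libraries were below both Dcl2 libraries at 47 of the 127 on CPM (background 22.7%) and at 73 on TMM-scaled CPM (26.8%). They were above at 31 (20.6%) and 18 (16.6%). Without dcl2-mu1 replicate 2, when the shallow replicate 1 stood alone, the lower calls rose from 3 to 16, and without replicate 1 they were 3. The higher calls became 2 without either dcl2T library and 3 without dcl2-mu1 replicate 1. The 4 called loci were called with each of the 6 libraries left out, but with only the 2 genotypes fitted their adjusted p by edgeR lay between 0.0226 and 0.0469 and the calls were 0 in both directions.

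The comparison of dcl2-mu1 with dcl2T set the 2 mutant alleles side by side, and it shares the dcl2-mu1 libraries with the comparison just described. The same 4 loci were called, 3 of 127 lower (background 0.199%) and 1 higher (0.164%). The edgeR log2 fold changes were −7.58 ± 0.66 (SE) for Cluster_84522 (adjusted p 0.00121), −6.32 ± 0.42 for Cluster_31773 (0.000232), −5.17 ± 0.43 for Cluster_43433 (0.000889) and 3.63 ± 0.35 for Cluster_79685 (0.00198). With only the 2 genotypes fitted, the adjusted p of these loci by edgeR lay between 0.0177 and 0.0583 and none was called. For Cluster_84522 the value was −6.92 without dcl2-mu1 replicate 1 and −9.40 without replicate 2. The change at Cluster_48935 was 2.64, with an adjusted p by edgeR of 0.124, and that at Cluster_22151 was −2.23, with 0.263. At an unadjusted p under 0.05, 41 long loci were lower (9.94%) and 8 higher (3.37%), and at an adjusted p under 0.05 the counts were 7 (0.448%) and 2 (0.403%). Both dcl2-mu1 libraries were below both dcl2T libraries at 62 long loci on CPM (29.7%) and 77 on TMM-scaled CPM (32.3%), and above them at 23 (17.8%) and 17 (15.1%). Of the 4 densest loci, 3 were higher in dcl2-mu1 at this limit, and their adjusted p by edgeR was between 0.137 and 0.326. The median over the 127 was −0.49, beside −0.37 over all tested loci, and −0.33 and −0.22 with library size alone. The long loci were above the median of all tested loci with no filter on low counts (−0.59 against −1.28) and with the replicate block (−0.52 against −0.60). They were also above it without dcl2-mu1 replicate 1 (−0.32 against −0.50) and without replicate 2 (−1.04 against −3.94). Without dcl2-mu1 replicate 2 the lower calls rose to 15, and without replicate 1 the higher calls rose to 3. The comparisons of dcl2T and dcl2-mu1 with Dcl2 use the same Dcl2 libraries, so their values at a locus are not independent of each other.

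Counts were also made of the long loci at which both libraries of a genotype lay beyond the 4 others. Both dcl2-mu1 libraries were below the 4 others at 39 of the 127 on CPM (background 16.7%) and at 58 on TMM-scaled CPM (19.1%), and above them at 16 (13.7%) and 11 (10.9%). For dcl2T, both libraries were above the 4 others at 42 (11.4%) and 41 (10.3%) and below them at 8 (2.72%) and 7 (3.13%). For Dcl2, both were above at 13 (6.12%) and 23 (8.85%) and below at 26 (8.98%) and 11 (6.5%). For dcl2-mu1 above the others, the share of the long loci was 12.6% on CPM and 8.66% on TMM-scaled CPM, near that over all tested loci. The share for Dcl2 below the others on TMM-scaled CPM, 8.66%, was also near it. Among the named loci the order of genotypes differed, as Cluster_66207 was lowest in dcl2T and Cluster_84522 was lowest in dcl2-mu1.

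The loci beside those called were examined next, beginning with the chromosome 8 run of 5. Cluster_66208, 3941 bp beyond Cluster_66207, had 103 and 111 CPM in Dcl2, 121 and 124 in dcl2T, with 122 and 143 in dcl2-mu1. Cluster_66209, the last of the run, had 873 and 774, 711 and 737, and 1752 and 1539 CPM, higher in dcl2-mu1. Cluster_66204, 629 bp before Cluster_66205, had 708 and 617, 721 and 1321, and 2502 and 899 CPM. The run thus held 2 loci low in both mutants beside loci that were not. These neighbours, like those below, were named after their values were seen.

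On chromosome 10 the loci examined beside Cluster_84522 spanned 45.781 kb and were all lowest in dcl2-mu1. Only loci within 20 kb of Cluster_84522 were examined, so the extent of the fall was not measured. Cluster_84521, the long locus 790 bp before Cluster_84522, had 30.8 and 43.7 CPM in Dcl2, 40.8 and 51.4 in dcl2T, with 7.18 and 7.35 in dcl2-mu1, with an edgeR log2 fold change of −2.69 and an adjusted p of 0.0273. Cluster_84523, a locus of 4795 bp after it, had 1574 and 1688, 2048 and 1885, and 79.0 and 48.2 CPM. Cluster_84525, of 7620 bp, had 1105 and 1163, 1546 and 1107, and 28.7 and 14.4 CPM, with an edgeR log2 fold change of −6.15 and an adjusted p of 0.000144. Cluster_84524, between these 2, was sparse, at 2.02 and 1.59, 2.75 and 6.10, and 0 and 0.490 CPM, with an edgeR adjusted p of 0.482. The loci of the stretch thus fell in the same direction but by unequal amounts, with −2.69 at Cluster_84521 against −7.40 at Cluster_84522. Beside the other 2 loci lost in dcl2-mu1, the neighbours were sparse. Cluster_31772, 5634 bp before Cluster_31773, had 7.56 and 2.50 CPM in Dcl2, 4.82 and 3.25 in dcl2T, with 0 and 0.735 in dcl2-mu1. Cluster_43432, 9186 bp before Cluster_43433, had 3.53 and 2.28, 4.36 and 8.33, and 0 and 0 CPM. Neither passed the threshold, with adjusted p by edgeR of 0.289 and 0.18 for dcl2-mu1 against Dcl2. On chromosome 4, Cluster_36250 lay 665 bp beyond Cluster_36249 and had 115 and 278, 94.3 and 73.4, and 78.5 and 57.1 CPM, and its edgeR adjusted p was 0.77 for dcl2T and 0.0755 for dcl2-mu1 against Dcl2.

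**Figure D5:**
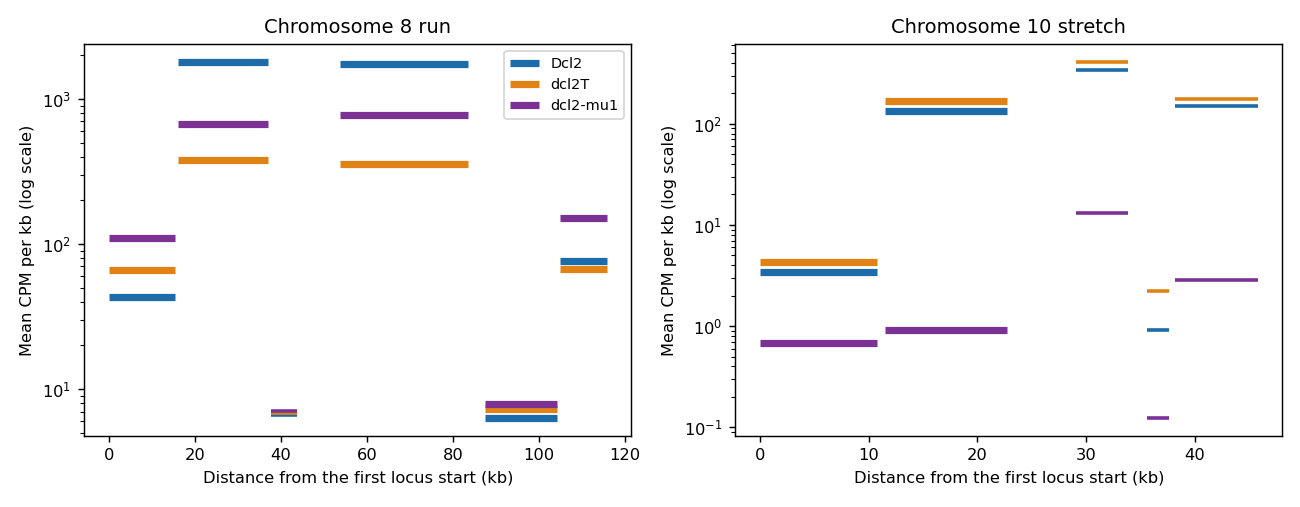
Mean CPM per kb (log scale) in the 3 genotypes over the chromosome 8 run and the chromosome 10 stretch, drawn to scale by distance from the start of the first locus (kb), with thick lines for long loci and thin lines for shorter ones. On chromosome 8 only the loci at about 16 and 54 kb are highest in Dcl2, whereas on chromosome 10 all 5 loci are lowest in dcl2-mu1.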

How the data were processed

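Pollen small RNA libraries of 3 genotypes, 2 per genotype, were grouped and numbered by the labels. Per the paper's methods, the authors trimmed reads with cutadapt, removed random identifier bases, filtered structural RNAs with bowtie2 and defined loci with ShortStack. Whether reads were collapsed by identifier, how reads with several positions were placed, and the genome build of this step are not given in the sources used here. The deposited values are raw counts per locus and library, with no normalization. A column with the authors' total matched the summed library columns at all 85421 loci and had no other use.

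CPM was computed on library totals. The test was edgeR 4.0.16 (R 4.3.3; glmQLFit, glmQLFTest) on all 6 libraries, with filterByExpr (minimum count 10, minimum total 15), TMM factors (0.836 to 1.30), no replicate term and Benjamini-Hochberg adjustment over 22558 loci. Approximate standard errors came from each F value. The code was also run on simulated data. Their dispersion was below the fitted common dispersion of 0.685, and their changes were larger than those called in dcl2T. That run therefore has no bearing on the calls. A sign-flip test planned for density is not reported, since all libraries measure the same loci. Shares were compared by exact permutation tests in Python 3.11.15 with scipy 1.17.1. Intervals cover counting error only, since PCR copies are not independent molecules.

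Named loci were those called, the 6 most abundant, the 3 longest, the 2 densest and 2 sparsest, the 2 largest changes per direction among those with at least 5 CPM and no overlap between groups, and the 2 on each side of the length limit. A log2 fold change of a named long locus was printed from a size of 1, and below that size for Cluster_84953 only. The members and these rules were chosen with earlier results of these data known. Alternatives were other scalings, DESeq2 1.42.0, other filters, thresholds and length limits, only 2 genotypes, a replicate block, and libraries left out. TMM with library sizes over all loci, and leaving out the 4 most abundant loci, were added after the data were seen.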

Additional observations from a re-analysis of the deposited data

How the results depend on the processing

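In sparse loci, 1 read was a large step where a library held few, and the part of depth in the results was not tested. Of the 2 loci called lower in dcl2T against Dcl2, 0 were called with a filter of 5 CPM in 2 libraries, with only the 2 genotypes fitted, or with TMM on library sizes over all loci (7, 9 and 6 long loci were lower at an unadjusted p under 0.05 by edgeR), and 1 was called with a length limit of 20000 bp. With single libraries left out the count ran from 0 to 3. For dcl2-mu1 against Dcl2, DESeq2 called 6 lower and 3 higher, only the 2 genotypes gave 0 and 0 (26 and 5 at an unadjusted p under 0.05), an adjusted p of 0.05 with a log2 fold change of 1 gave 10 and 2, a length limit of 5000 bp gave 10 and 9, and one of 20000 bp gave 0 and 0. Left-out libraries gave 3 to 16 lower and 1 to 3 higher. For dcl2-mu1 against dcl2T the counts were 6 and 3 by DESeq2, 5 lower with no filter, 0 and 0 with only the 2 genotypes (36 and 8 at an unadjusted p under 0.05), 7 and 2 at the looser threshold, 14 and 8 at 5000 bp, and 0 and 0 at 20000 bp, and left-out libraries gave 3 to 15 lower and 1 to 3 higher. The cause of these shifts was not tested, apart from the length limits, which change the members. The difference in share reversed to 0.337 points for dcl2T against Dcl2, and to −0.476 for dcl2-mu1 against dcl2T, without the 4 most abundant loci, and the ratio of count share to length share became 2.20. The density log2 ratio stayed between 0.88 and 0.99 with a library left out. It was 0.68 with a minimum of 100 reads, 0.94 with no minimum and 0.88 on summed CPM over summed length. The 1 to 5 kb class gave no value as a comparison class because its median was 0 in dcl2-mu1 replicate 1. The replicate numbers did not pair the libraries, as correlations of their deviations were 0.00, −0.01 and −0.01. With the replicate block the calls were 3 lower and 0 higher in dcl2T, 3 and 1 in dcl2-mu1 against Dcl2, and 3 and 1 against dcl2T.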
